A study of Mus musculus with 58 samples.

Results

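The retina of hyperglycemic Ins2Akita mice was compared before and after lights off, between ZT9, in the light phase, and ZT13, the first time point in the dark, with ZT counting the hours from lights on. The 9 libraries of this comparison, of 58 in the series, were all diabetic libraries whose title gives ZT9 (5 libraries, replicates 1 to 5) or ZT13 (4 libraries, replicates 1, 3, 4 and 5). They came from male mice of the genotype C57BL/6-Ins2Akita/J, heterozygous for a dominant mutation of the insulin 2 gene, at 4 months of age. Their littermate males without the phenotype, of the genotype C57/BL/6, served as controls, with 5 libraries at ZT9 and 5 at ZT13. All mice were kept from birth with equal periods of light and dark and with free access to food, and were perfused with cold saline before the retina was dissected. Each library was made from total RNA of the retina after depletion of ribosomal RNA. The mice are a model of hyperglycemia from the loss of insulin-producing cells, and the values are means over all cells of the tissue, so that fewer cells of a type and less RNA per cell cannot be told apart. Night retinas were collected under dim red light, so time of day, darkness and the way of collection cannot be told apart either.

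In the dark, photoreceptors of the retina hold their channels open, release glutamate and use more energy than in light. Dopamine is released by day and signals light to photoreceptors through the D4 receptor, while melatonin is made at night. Photoreceptors are known for aerobic glycolysis, in which glucose is turned into lactate although oxygen is present, and a circadian clock in retinal cells adjusts gene expression to the coming light or dark. The comparison asks which transcripts of the diabetic retina changed over the hours around lights off.

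A total of 19120 genes were tested with edgeR's quasi-likelihood test, and a gene is called where its adjusted p is under 0.05. Of these, 18 genes were higher at ZT13 (0.0941% of the genes tested) and 13 were lower (0.068%). The median log2 change over all genes was close to 0, and 90% of genes lay between -0.32 and 0.47. With a correction for GC content and length, 43 genes were higher and 51 lower. The genes that rose included Irf7, a transcription factor of the interferon response, Drd4, the dopamine D4 receptor, Slc16a3 and Hk2 of lactate export and glycolysis, P4ha1, a hydroxylase of collagen, and the nuclear receptor gene Rorb. The genes that fell included BC027072, Fscn2 of the photoreceptor outer segment, Acadm of fatty acid oxidation and Mrps2 of the mitochondrial ribosome. The median size of the change among the 31 called genes was 0.55 on the log2 scale. At an unadjusted p under 0.05 there were 707 genes higher (3.7%) and 769 lower (4.02%).

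**Figure D1:**
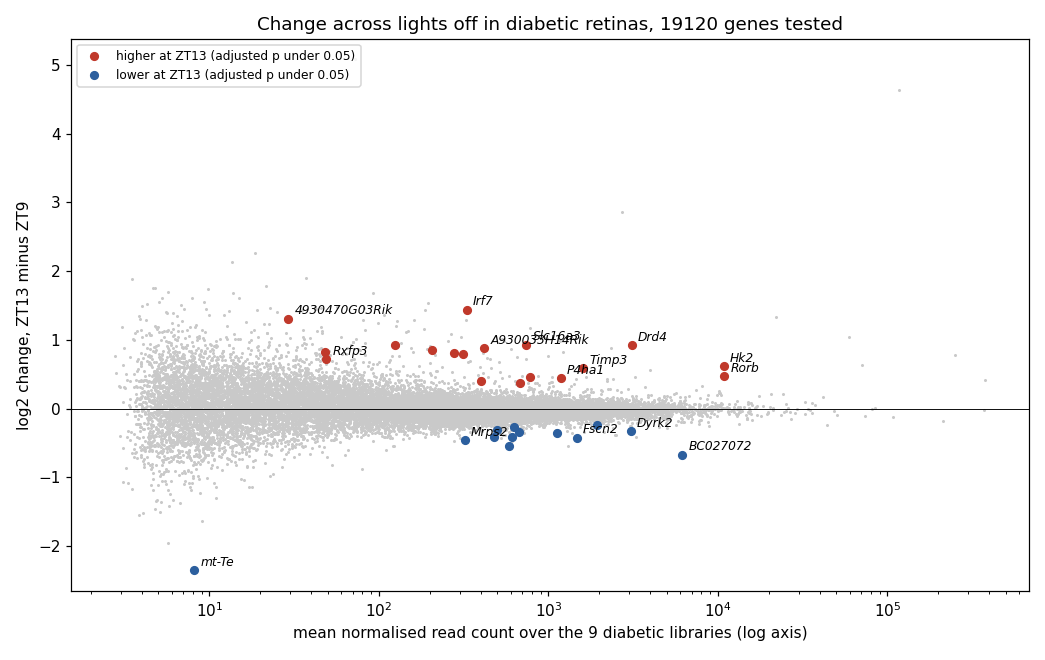
Log2 change between ZT9 and ZT13 in diabetic retinas (vertical axis) against the mean normalised read count over the 9 libraries (horizontal log axis), 1 dot per gene, with the 18 genes called higher in red and the 13 called lower in blue. Called and uncalled genes overlap in the size of their change at the same level, with Irf7 and 4930470G03Rik the highest red dots and mt-Te the lowest blue one, and the uncalled grey dots far above 0 at high counts are Gm23935 and other structural RNAs such as Rmrp and Rpph1.

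The libraries held between 8823091 and 17782291 counted reads. One ZT13 library, replicate 5, stood apart from the others in the chi-square of its counts, on which abundant loci weigh most. In the correlation of log2 counts with the rest of its group, replicate 5 did not, with 0.9864 against 0.9854 to 0.9922 in the other libraries. The chi-square of its counts was 84.2 and 87.7 per degree of freedom against ZT13 replicates 1 and 3 and nearly as high against replicate 4, where all pairs within a group without this library had 3.59 to 15.4. Gm23935, a locus of small structural RNA, took 5.59% of its reads and 0.740% of those of ZT13 replicate 4, where ZT9 replicates 4 and 5 had 0.140% and 0.107% and the other 5 libraries 0.0312% to 0.0379%. Replicates 4 and 5 thus had the highest share at both times. The mitochondrial ribosomal RNA gene mt-Rnr1 had 6975 and 12735 normalised read counts in ZT13 replicates 4 and 5, against 409 to 876 in the other libraries. Without ZT13 replicate 5 only 6 of the 31 calls remained, those of Irf7, Drd4, Slc16a3, Rorb, A930033H14Rik and BC027072. Except Rorb, these also passed without any other single library. Without ZT13 replicates 4 and 5 together, an alternative chosen after the data were seen that leaves 2 libraries at ZT13, the calls of Irf7 and BC027072 remained (adjusted p of 0.0182 and 0.0398). Among the other 25 genes the sign was kept in all and the adjusted p without ZT13 replicate 5 was between 0.0572 and 0.414. P4ha1, Timp3, Mrps2, Acadm and Fscn2 then had log2 changes of 0.38, 0.54, -0.41, -0.36 and -0.41. Lens markers also set libraries apart. They summed to 969.7 and 1006 normalised read counts in ZT9 replicates 4 and 5 and to 846 in ZT13 replicate 4, against 12.5 to 81.7 in the other 6 libraries. Of the 8 lens markers 3 were tested and none was called. Without ZT9 replicate 4, 11 of the 31 calls remained, without ZT9 replicate 5, 9 remained, and without ZT13 replicate 4, 15 remained, and the part of lens RNA in these calls was not tested. Of 7 structural small RNAs tested, none was called, with a median log2 change of 0.78 and of 0.20 without ZT13 replicate 5. With all loci of small structural RNA left out of the table, the called mitochondrial tRNA gene mt-Te among them, the other 30 calls remained. That fit still held ZT13 replicate 5. All markers of rods, cones, bipolar, amacrine and ganglion cells, Müller glia, microglia and endothelium had reads, which is what a whole retina holds. List members named below that were not called were, unless they belong to the clock lists or to the genes of known interest given in the methods, chosen after their values were seen.

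Drd4 encodes the dopamine D4 receptor, which lowers cyclic AMP in photoreceptors. Its normalised read counts were 2333, 2004, 2055, 2444 and 2286 in the ZT9 libraries and 3944, 3563, 4289 and 5064 in the ZT13 libraries. The lowest ZT13 library was thus above the highest ZT9 library, as in 14 of the 18 genes called higher, where 1.19% of all genes tested had all 4 ZT13 libraries above all 5 ZT9 libraries. The calls rest on these same libraries, so the absence of overlap in called genes, higher or lower, is no further support. The mean of Drd4 rose from 2224 ± 188 (SD, n = 5) to 4215 ± 639 (SD, n = 4), with a log2 change of 0.92 ± 0.14 (SE), adjusted p = 0.00018. Drd4 lies on chromosome 7 from 141292006 to 141296464 of GRCm38 (Gencode M21). It was the called member of a list of dopamine, cyclic AMP and melatonin genes, of which 14 were tested, with 1 call and a median log2 change of 0.03. Drd2, the dopamine D2 receptor gene, had a log2 change of 0.25 ± 0.11 (SE) and an adjusted p of 0.542. Adcy1, an adenylyl cyclase that the clock drives in photoreceptors, had 9630.2 ± 745 and 9648 ± 1075 normalised read counts at the 2 times (SD, n = 5 and 4), and a log2 change of 0.00 ± 0.07 (SE).

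Hk2 encodes hexokinase 2, which commits glucose to glycolysis in photoreceptors, and Slc16a3 encodes the transporter MCT4, which carries lactate out of cells. The counts of Hk2 were 9373, 7615, 9433, 8907 and 8602 at ZT9 and 11667, 11803, 12949 and 17510.1 at ZT13. Those of Slc16a3 were 539.7, 456, 591, 604 and 456 at ZT9 and 762, 888, 942 and 1443 at ZT13. Neither gene's groups overlapped, and replicate 5 was the highest ZT13 library for both. Hk2 had a log2 change of 0.62 ± 0.10 (SE), adjusted p = 0.000479, and Slc16a3 a log2 change of 0.93 ± 0.14 (SE), adjusted p = 0.00018. Without ZT13 replicate 5, the log2 changes were 0.47 (adjusted p = 0.0572) and 0.71 (adjusted p = 0.0228), so Hk2 lost its call.

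The list of glycolysis and lactate transport had 28 genes tested, of which 2 were called higher and none lower, and its median log2 change was 0.12. At an unadjusted p under 0.05, 9 were higher and 0 lower, against 3.7% higher and 4.02% lower of all genes. Among these were Pgk1, phosphoglycerate kinase, with a log2 change of 0.43 ± 0.11 (SE, adjusted p = 0.0848), and Pfkfb3, which makes the activator of phosphofructokinase, with 0.38 ± 0.09 (SE, adjusted p = 0.0617). Ldha, the lactate dehydrogenase subunit that turns pyruvate into lactate, had counts of 8938, 8386, 10416, 10318 and 9308 at ZT9 and 10639.7, 10766, 10379.5 and 12657 at ZT13. The ranges overlapped, and the log2 change was 0.23 ± 0.08 (SE, adjusted p = 0.324). The glucose transporter gene Slc2a1 had a log2 change of 0.15 ± 0.10 (SE, adjusted p = 0.789). Pgk1 and Pfkfb3 passed with DESeq2 (adjusted p = 0.0391 and 0.0256), which called 4 genes of the list higher. Over the fits that left out one library, the median of the list was 0.08 to 0.16.

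P4ha1 encodes the catalytic subunit of collagen prolyl hydroxylase and is known as a target of the hypoxia-inducible factors (HIF), transcription factors that oxygen-sensing enzymes such as Egln1 mark for destruction. Its counts were 925, 867, 985, 1193 and 1129.7 at ZT9 and 1078, 1442, 1450.0 and 1569 at ZT13. ZT13 replicate 1 lay within the range of ZT9 and the other 3 libraries lay above it, with a log2 change of 0.44 ± 0.09 (SE), adjusted p = 0.0166. In the list of hypoxia factors and HIF targets, 19 genes were tested, 1 was called higher and none lower, and the median log2 change was 0.13. At an unadjusted p under 0.05, 5 were higher and none lower, against 3.7% higher and 4.02% lower of all genes. The median was 0.04 without ZT13 replicate 1 and 0.07 without ZT13 replicate 5. Egln1 had a log2 change of 0.29 ± 0.10 (SE, adjusted p = 0.327), Bnip3, a mitophagy receptor, one of 0.38 ± 0.12 (SE, adjusted p = 0.276), and Vegfa, the vascular growth factor, one of 0.13 ± 0.09 (SE, adjusted p = 0.81). Pdk1, the kinase that holds pyruvate dehydrogenase inactive, had 0.28 ± 0.10 (SE, adjusted p = 0.336). Hif1a, which is controlled mainly at the protein level, had -0.06 ± 0.08 (SE, adjusted p = 0.964). Without ZT13 replicate 5, the log2 changes of Egln1, Vegfa and Pdk1 were 0.24, 0.04 and 0.18.

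The promoters of Hk2, Slc16a3 and P4ha1, all called higher, each held the letters ACGTG, the core of the element that HIF binds, within 250 bases before the RefSeq start of the gene (GRCm38.p6). One such stretch is shown for each gene, 5′ to 3′ along the gene's strand and outside the exons of Gencode M21, with the core on either strand in capitals, so that CACGT is ACGTG read on the other strand.
Hk2, minus strand, chr6:82774472-82774536: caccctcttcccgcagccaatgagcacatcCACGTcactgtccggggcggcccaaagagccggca
Slc16a3, plus strand, chr11:120949010-120949052: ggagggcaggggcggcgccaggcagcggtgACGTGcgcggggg
P4ha1, plus strand, chr10:59323250-59323295: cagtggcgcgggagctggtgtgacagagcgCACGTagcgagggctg
Of all distinct RefSeq promoters of this length, 16.7% held the core. The promoters of 9 called genes were searched. Of the other 6, Mrps2, which fell, held the core, Rorb held it at one of its 2 start sites, and Irf7 and Drd4, called higher, and Acadm and Fscn2, called lower, did not. By gene, the core was found for 12 of the 25 genes of the glycolysis list with a promoter sequence and for 11 of 16 of the hypoxia list. Of all genes with a promoter sequence, tested here or not, 18.5% held it. The hypoxia list was chosen to hold HIF targets, so its share is not independent of that choice. Neither share is a test of the change between ZT9 and ZT13. ACGTG is part of the E-box CACGTG bound by clock factors, which 6.04% of promoters held and none of these 3 did. In Hk2 and Slc16a3 the core shares letters with TGACG, a short form of the cyclic AMP response element, found in 17.9% of promoters. A match of letters is a description of the window and not a site shown to be bound.

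Irf7 encodes interferon regulatory factor 7, which interferon induces and which amplifies the interferon response. Its counts were 191, 165, 158, 205 and 219.6 in the ZT9 libraries and 529, 435, 480.0 and 592 in the ZT13 libraries, with no overlap between the groups. The change was the one with the smallest p of all genes, with a log2 change of 1.44 ± 0.20 (SE), adjusted p = 5.63e-05, or a 2.71-fold rise. It held in each of the 21 alternatives that were run. Irf7, on chromosome 7 from 141262706 to 141266481, overlaps Phrf1 on the other strand, which had a log2 change of -0.12 and was not called. Phrf1 was the more abundant, with a mean of 1677 normalised read counts against 331 for Irf7, and since the strand setting of the counting is not given in the sources used here, reads of this pair cannot be assigned with certainty. Of the 15 genes tested in the list of the interferon response and MHC class I, Irf7 was the called one, and the median log2 change was 0.14. The interferon-induced genes Isg15, Bst2 and Ifit3 had log2 changes of 0.81 ± 0.48, 0.67 ± 0.34 and 0.51 ± 0.23 (SE), with adjusted p of 0.741, 0.66 and 0.569. Irf1 and Irf9, which carry or extend interferon signals, had -0.10 and 0.03. The median of this list was -0.07 without ZT13 replicate 1, 0.03 without ZT9 replicate 1 and between 0.06 and 0.21 without any other one library. The markers of microglia summed to 216 to 259.7 normalised read counts at ZT9 and 236 to 279 at ZT13, with none called, and their part in the change of Irf7 was not tested.

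**Figure D2:**
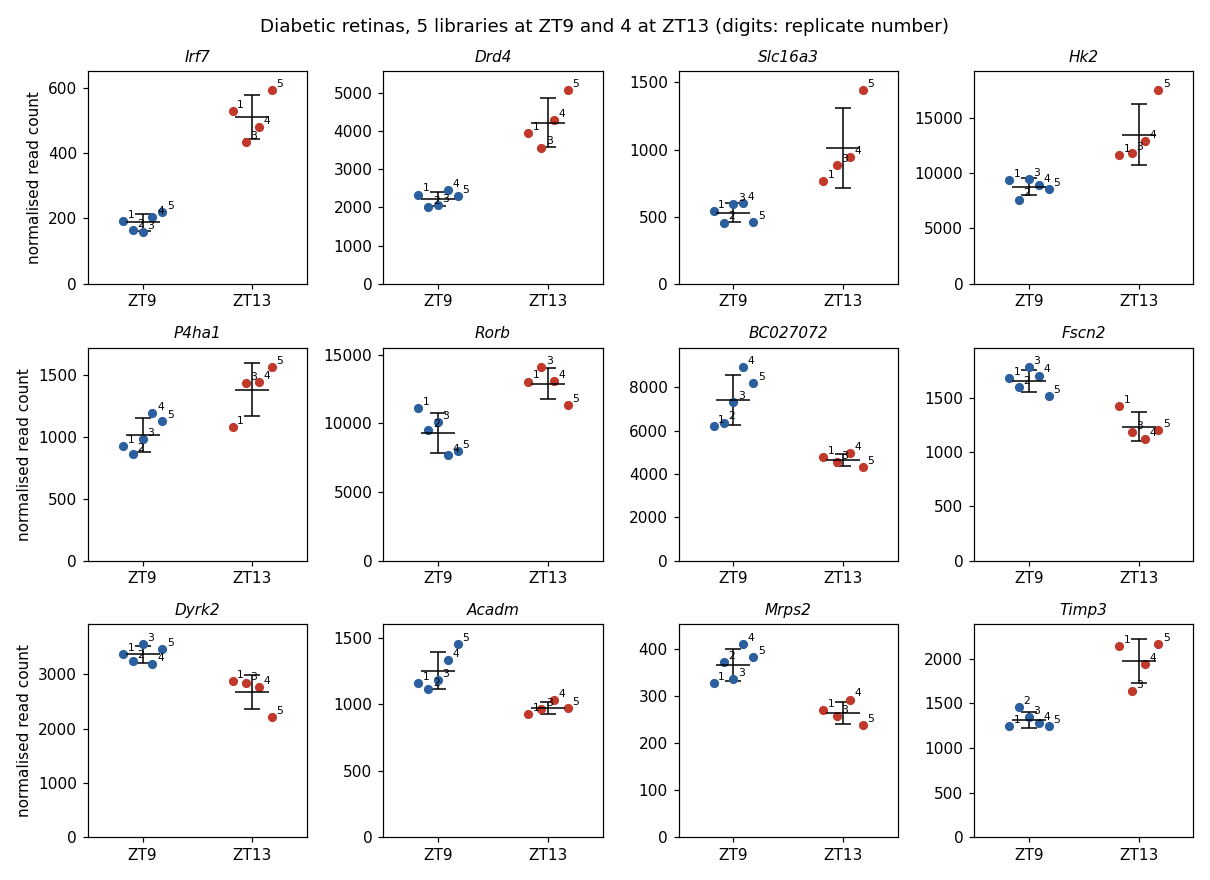
Normalised read counts of 12 called genes in each diabetic library at ZT9 (blue, n = 5) and ZT13 (red, n = 4), with the mean and SD as black bars and the replicate number beside each point. All of them except P4ha1 have ZT13 libraries wholly above or below the ZT9 libraries, and replicate 5 is the farthest ZT13 library from ZT9 for Irf7, Drd4, Slc16a3, Hk2, P4ha1, BC027072, Dyrk2, Mrps2 and Timp3.

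Of the core clock genes, Rorb was the called one. It encodes a nuclear receptor that acts on the same elements as the Rev-erb repressors and is needed for rod development. Its counts were 11122, 9523, 10121, 7687 and 7968 at ZT9 and 13039.9, 14102, 13068 and 11355 at ZT13, where the lowest ZT13 library, replicate 5, was just above the highest ZT9 library, replicate 1. It had a log2 change of 0.47 ± 0.10 (SE), adjusted p = 0.0221. The call was lost without any one of 5 libraries, ZT9 replicates 4 and 5 and ZT13 replicates 1, 3 and 4, where the adjusted p was at most 0.129. Arntl, the main activator of the clock, had a log2 change of -0.11 ± 0.07 (SE, adjusted p = 0.81). Clock had -0.06 ± 0.09 (SE), Npas2 0.01 ± 0.19, Nr1d1 -0.05 ± 0.16, Nr1d2 0.01 ± 0.11, Rora 0.04 ± 0.08 and Arntl2 0.06 ± 0.18. None of the 6 clock repressors was called. Per2 had counts of 679, 589.7, 593, 833 and 875 at ZT9 and 732, 886, 924 and 978 at ZT13, overlapping ranges, with a log2 change of 0.30 ± 0.14 (SE, adjusted p = 0.563). Per1, Per3, Cry1, Cry2 and Ciart had -0.04 ± 0.16, 0.09 ± 0.09, -0.08 ± 0.08, 0.04 ± 0.07 and -0.28 ± 0.15 (SE).

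The 10 clock output genes tested, known as targets of clock factors in one tissue or another, held no call. Plekhb1, a membrane protein of photoreceptors, had 9405 ± 1029 and 11232 ± 846 normalised read counts (SD, n = 5 and 4), with a log2 change of 0.26 ± 0.09 (SE, adjusted p = 0.394). Cys1 had a log2 change of 0.30 ± 0.13 (SE, adjusted p = 0.529), Nr2e3, the repressor of cone genes in rods, -0.23 ± 0.10 (adjusted p = 0.474), and Usp2, a deubiquitinase, -0.25 ± 0.14 (adjusted p = 0.693). The PAR-domain factors Dbp, Tef and Hlf had -0.10 ± 0.12, 0.04 ± 0.06 and -0.01 ± 0.07, and Nfil3, which competes with them, 0.03 ± 0.13. Bhlhe40 and Bhlhe41, repressors of clock targets, had -0.03 ± 0.11 and 0.06 ± 0.07 (SE).

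**Figure D3:**
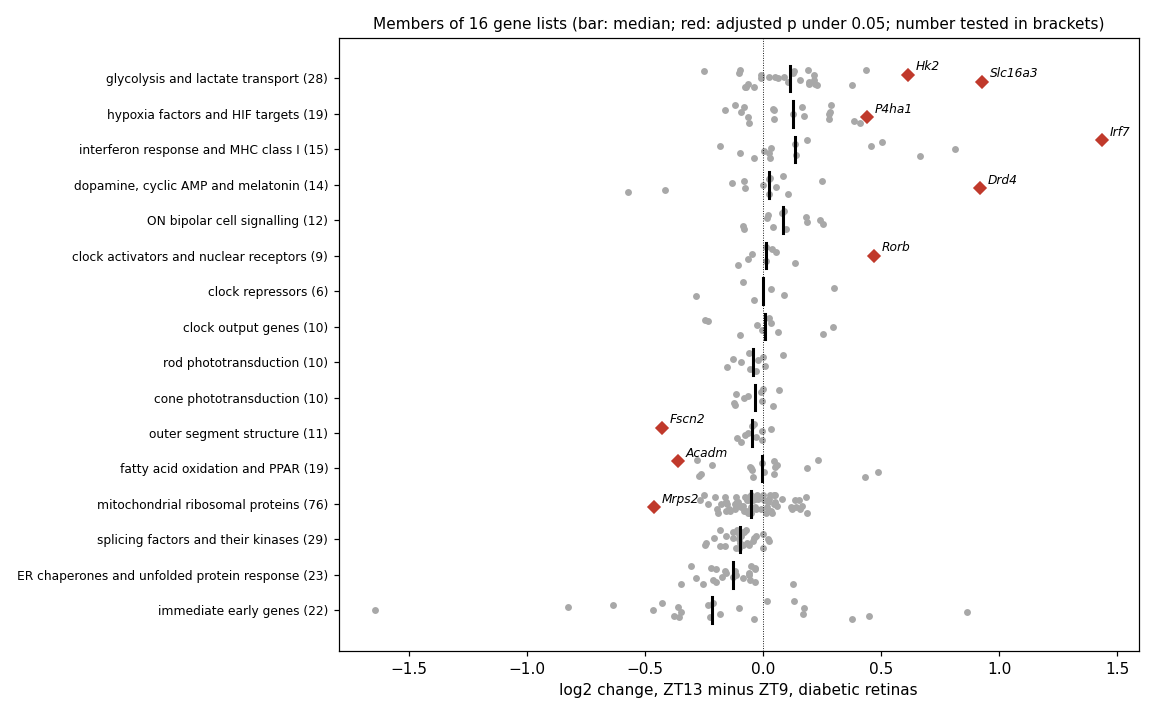
Log2 change between ZT9 and ZT13 in diabetic retinas (horizontal axis) for the members of 16 gene lists (rows, with the number tested), 1 point per gene, with called genes as red diamonds and the list's median as a black bar. Each of 8 of these lists holds a called gene or, for glycolysis, 2, and most members of every list lie within 0.5 of 0.

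BC027072 was the gene with the smallest p among those that fell. The symbol is an earlier one for Pcare, an actin regulator of the photoreceptor cilium, which is general knowledge and not from the annotation used here. That annotation does not list the symbol, so it has no position here and is in none of the lists. Its counts were 6209, 6371, 7329, 8936 and 8185 at ZT9 and 4769, 4548, 4956 and 4309 at ZT13. All 4 ZT13 libraries lay below all 5 ZT9 libraries, as for the other 12 genes called lower, where 1.07% of all genes tested showed this, and the ZT9 replicates 4 and 5 were the highest. It had a log2 change of -0.67 ± 0.10 (SE), adjusted p = 0.000126. Fscn2 encodes the retinal fascin, which bundles actin in photoreceptors. It had counts of 1686, 1602, 1789.9, 1711 and 1519.8 at ZT9 and 1433, 1186, 1127 and 1207 at ZT13, with a log2 change of -0.43 ± 0.10 (SE), adjusted p = 0.04. It lies on chromosome 11 from 120361534 to 120368168. It was the called one of 11 outer segment genes tested, 10 of which had a log2 change below 0, with a median of -0.05. The changes of the other 10 were between -0.11 and 0.04.

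No gene of rod or cone phototransduction was called, with 10 genes tested in each list and medians of -0.04 and -0.04. The cone opsin genes Opn1sw and Opn1mw had log2 changes of 0.04 ± 0.10 and -0.12 ± 0.12 (SE). Of the 12 genes tested that shut off the photoresponse, none was called, 5 had a log2 change above 0 and 7 below, and the median was -0.02. Arr3, the cone arrestin, had counts of 3974, 3532, 3536, 3457 and 3862 at ZT9 and 2897, 2907, 2499 and 2787 at ZT13, with no overlap. Its log2 change was -0.41 ± 0.10 (SE, adjusted p = 0.0722), and it passed with DESeq2 (adjusted p = 0.0311). Sag, the rod arrestin, had -0.24 ± 0.08 (SE, adjusted p = 0.314), and Pdc, phosducin, had 0.21 ± 0.09 (SE, adjusted p = 0.529).

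Acadm encodes the medium-chain acyl-CoA dehydrogenase of fatty acid oxidation. Its counts were 1163, 1118, 1186, 1332 and 1455 at ZT9 and 924, 967, 1035 and 972 at ZT13, with a log2 change of -0.36 ± 0.08 (SE), adjusted p = 0.0228. In the list of fatty acid oxidation and PPAR it was the called one of 19 genes tested, with a median of -0.01. At an unadjusted p under 0.05, 1 was higher and 4 were lower, against 3.7% and 4.02% of all genes. Cpt1a, which admits fatty acids to the mitochondrion, had 3345 ± 389.6 and 2757 ± 142 normalised read counts (SD, n = 5 and 4), a log2 change of -0.28 ± 0.07 (SE) and an adjusted p of 0.0618. It passed with DESeq2 (adjusted p = 0.0256), which called 2 genes of the list lower. Acadvl and Slc25a20 of the same pathway had -0.27 ± 0.10 and -0.26 ± 0.11 (SE), and Ucp2, a mitochondrial carrier, 0.49 ± 0.23. Mrps2 encodes a protein of the small subunit of the mitochondrial ribosome. It had counts of 328, 372, 336, 411 and 383 at ZT9 and 271, 257, 293 and 238 at ZT13, with a log2 change of -0.46 ± 0.08 (SE), adjusted p = 0.0034. Of 76 mitochondrial ribosomal protein genes tested it was the called one, 50 had a log2 change below 0 and the median was -0.05. The 80 cytosolic ribosomal protein genes held no call and had a median of 0.02, and of -0.05 without ZT13 replicate 5.

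Dyrk2, a protein kinase gene, had counts of 3372, 3237, 3556, 3187 and 3455 at ZT9 and 2864, 2839, 2759 and 2213 at ZT13, with a log2 change of -0.33 ± 0.07 (SE), adjusted p = 0.0124. The lowest ZT13 library was replicate 5, and the other 3 lay close together. Phax, an adaptor for the export of small nuclear RNA, fell from 689 ± 71.2 to 515 ± 60.7 (SD, n = 5 and 4, adjusted p = 0.0117), and Gtf2h1, a subunit of the transcription factor TFIIH, from 682 ± 37.9 to 566 ± 15.7 (adjusted p = 0.0489). Eef1d, a subunit of a translation elongation factor, fell from 742 ± 111 to 582 ± 24.8 (adjusted p = 0.0489), and Tor1b, an ATPase of the endoplasmic reticulum, from 543 ± 33.5 to 439 ± 21.5 (adjusted p = 0.0432). Sema6c, a semaphorin, Ehd4, an ATPase of endosome recycling, and Fam149a had log2 changes of -0.55 ± 0.12, -0.41 ± 0.09 and -0.24 ± 0.05 (SE, adjusted p of 0.0432, 0.0432 and 0.0182). The mitochondrial glutamate tRNA gene mt-Te, named outside the rule for named genes because of its low level, fell from 12.6 ± 3.80 to 2.50 ± 1.60 counts (adjusted p = 0.0294).

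Timp3 encodes an inhibitor of metalloproteinases that is abundant in the pigment epithelium behind the retina. Its counts were 1241, 1463, 1344, 1279 and 1241 at ZT9 and 2138, 1641, 1944 and 2166 at ZT13, with no overlap and a log2 change of 0.58 ± 0.12 (SE), adjusted p = 0.0221. The 9 markers of the retinal pigment epithelium summed to 1284, 1688, 1227, 807 and 1043 normalised read counts in the ZT9 libraries and to 2185, 1446, 1969 and 3879.9 in the ZT13 libraries. All 8 that were tested had a log2 change above 0, with a median of 1.04, none was called, and none was at 0 in all 9 libraries. Their part in the change of Timp3 was not tested. The 5 blood markers, all too low to be tested, summed to 1.81 to 16.2 at ZT9 and to 9.85 to 142 at ZT13, and the 5 bipolar cell markers to 17962 to 19777 and 20412 to 22502. Bipolar sums thus did not overlap, though none of the 5 markers was called. In the list of ON bipolar cell signalling, 12 genes were tested and none called, with a median log2 change of 0.09, and of 0.02 without ZT13 replicate 4.

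Of the remaining protein-coding genes called higher, Wscd2 rose from 664 ± 29.7 to 915 ± 199 (SD, n = 5 and 4, adjusted p = 0.0264) and Bend4 from 601 ± 39.4 to 781 ± 53.9 (adjusted p = 0.0362). Without ZT13 replicate 5, the highest ZT13 library for Wscd2, its log2 change was 0.30 against 0.46 with it, and its adjusted p was 0.414. Rxfp3, a receptor for the peptide relaxin-3, rose from 37.6 ± 5.05 to 62.9 ± 9.14 (adjusted p = 0.0367). Rhobtb1, an atypical GTPase gene on chromosome 10 from 69151434 to 69291791, had counts of 334, 269, 261, 152 and 155 at ZT9 and 312, 445, 436 and 446 at ZT13, with a log2 change of 0.79 ± 0.16 (SE), adjusted p = 0.0117. A930033H14Rik lies within Rhobtb1 on the other strand, from 69209762 to 69213098, and had 468, 265, 264, 245 and 268 at ZT9 and 592, 584, 572 and 499 at ZT13, with a log2 change of 0.88 ± 0.15 (SE), adjusted p = 0.00211. Whether the authors counted by strand is not given in the sources used here, so reads of this pair cannot be assigned to one gene with certainty. The other 6 gene models called higher, named outside the rule, were Gm12758, Gm26803, Gm9195, 5830408C22Rik, 4930470G03Rik and 4930534D22Rik, with log2 changes from 0.40 to 1.31. All except Gm9195 overlap a more abundant gene on the other strand, none of which was called. Among the protein-coding genes, besides Irf7, Phax overlaps the more abundant Aldh7a1 on the other strand, which had a log2 change of -0.11 and was not called.

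Immediate early genes, which neural activity or light induces within minutes, held no call in the fit of all libraries. Nr4a1, an inducible nuclear receptor gene, had counts of 409.7, 417, 389, 552 and 438 at ZT9 and 696, 744, 815 and 944 at ZT13, with no overlap. Its log2 change of 0.86 ± 0.30 (SE) had an adjusted p of 0.358, while with the spread estimated from the 9 diabetic libraries alone it passed (adjusted p = 0.00144). Fos, a component of the transcription factor AP-1, had 254 ± 46.3 and 335 ± 49.9 (SD, n = 5 and 4) and a log2 change of 0.38 ± 0.43 (SE). Btg2, an inhibitor of proliferation, had -0.36 ± 0.09 (SE, adjusted p = 0.0617) and passed with DESeq2 (adjusted p = 0.0256). Npas4 had -0.64 ± 0.27 (adjusted p = 0.498) and Egr4 -1.64 ± 0.50 (adjusted p = 0.229). The means of Egr4 were only 12.9 and 4.12 normalised read counts at ZT9 and ZT13, near the filter. At an unadjusted p under 0.05, 1 of the 22 tested was higher and 5 were lower, against 3.7% and 4.02% of all genes. The median over the 22 was -0.22. It was -0.13 without ZT13 replicate 1 and -0.12 without ZT9 replicate 4.

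Genes of endoplasmic reticulum chaperones and the unfolded protein response held no call, and 22 of 23 had a log2 change below 0, with a median of -0.13. At an unadjusted p under 0.05, 7 were lower and none higher, against 4.02% lower and 3.7% higher of all genes. Hspa5, the chaperone BiP, had 2342 ± 337 normalised read counts at ZT9 and 1842 ± 249 at ZT13 (SD, n = 5 and 4), a log2 change of -0.35 ± 0.12 (SE) and an adjusted p of 0.347. The splicing factor list likewise held no call, with 25 of 29 below 0 and a median of -0.10. Over all genes tested, 9776 were below 0 and 9344 above.

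The cold-inducible genes Cirbp and Rbm3 had log2 changes of -0.08 ± 0.09 and -0.04 ± 0.10 (SE), and the heat shock genes Hspa1b and Hspa8 -0.23 ± 0.15 and -0.06 ± 0.12. Fkbp5 and Tsc22d3, which glucocorticoids induce, had 0.09 ± 0.11 and -0.02 ± 0.12, and Txnip, which glucose induces, -0.02 ± 0.17. None of these 7 was called. In all, 47 gene lists were counted, of which 8 held a call. Many of the medians near 0 changed sign in at least 1 fit that left out a library. Among them were those of the clock activator, clock repressor, clock output, dopamine, fatty acid oxidation, photoresponse shut-off and cytosolic ribosomal protein lists.

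The same time points in control retinas, which share no library with the diabetic ones, gave 12 genes higher (0.0628%) and 13 lower (0.068%). Of the 31 genes called in diabetic retinas, 7 were called in the same direction in control retinas, which is 22.6% of the diabetic and 28.0% of the control calls. These were Hk2, Rorb, Wscd2, A930033H14Rik, Gm12758, BC027072 and Fscn2. The sign in control retinas was the same for 30 of the 31, against 59.0% of all genes tested. The log2 change in control retinas was 0.54 ± 0.10 (SE) for Hk2, 0.47 ± 0.13 for Drd4, 0.72 ± 0.20 for Irf7, -0.55 ± 0.09 for BC027072 and -0.04 ± 0.12 for Timp3, the one gene of the opposite sign. The genes were chosen for their change in diabetic retinas, so a smaller value in control retinas is no sign of a difference.

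The difference itself was tested as the diabetic minus the control change in one fit, and no gene was called by edgeR or by DESeq2. At an unadjusted p under 0.05 edgeR counted 573 genes, which is 3.0% of those tested. The difference was 0.72 ± 0.28 (SE) on the log2 scale for Irf7, 0.46 ± 0.20 for Drd4, 0.63 ± 0.17 for Timp3, -0.31 ± 0.11 for Acadm and 0.08 ± 0.14 for Hk2, each with an adjusted p of 1. A change of these genes that differs between diabetic and control retinas was therefore not shown. The medians of the glycolysis and hypoxia lists were 0.15 and 0.12 in control retinas, that of immediate early genes -0.60 and that of the interferon list -0.09. In the same control retinas the list of endoplasmic reticulum chaperones had -0.03 and that of splicing factors 0.02. A difference of these medians between the genotypes was not tested.

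**Figure D4:**
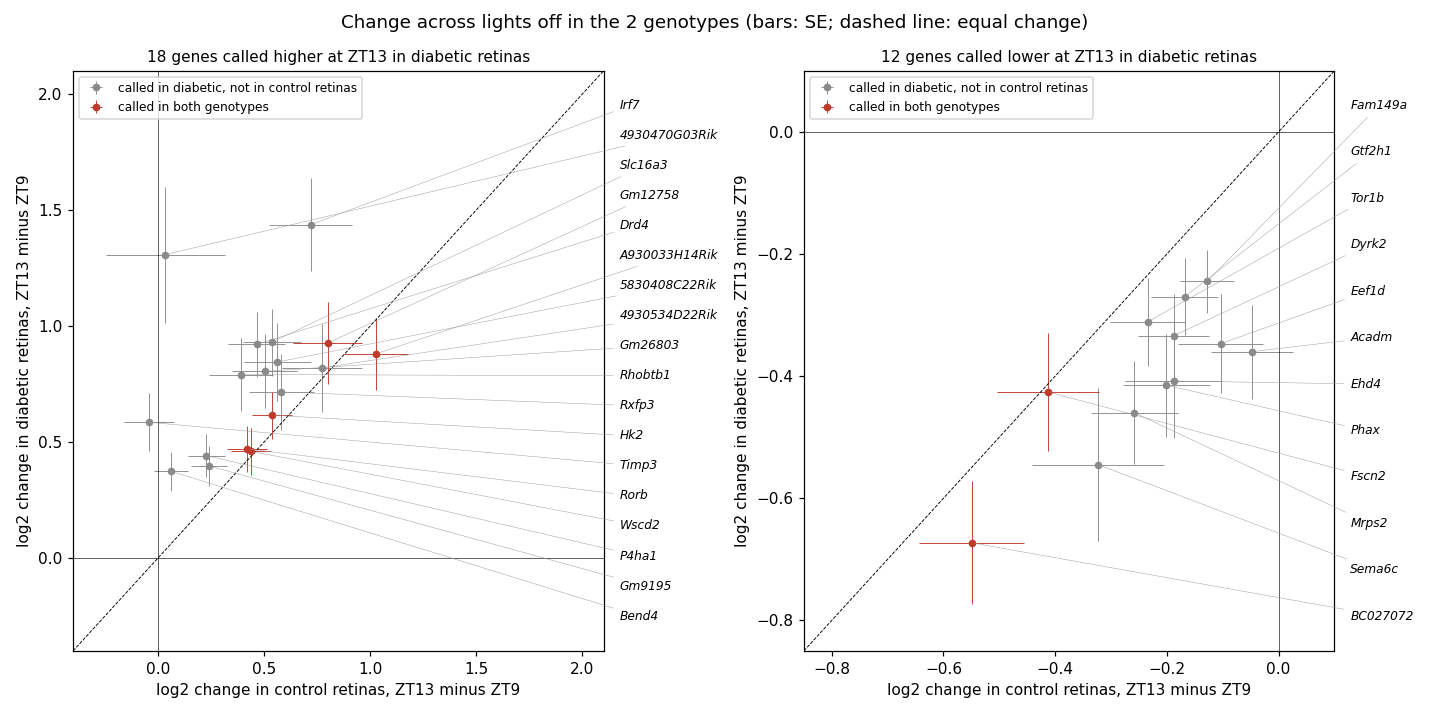
Log2 change between ZT9 and ZT13 in diabetic (vertical axis) against control retinas (horizontal axis) for the 18 genes called higher in diabetic retinas (left) and 12 of the 13 called lower (right, without mt-Te), with the SE as bars and equal change as a dashed line. The 7 genes called in both genotypes (red) lie near the line, and Timp3, Bend4, Acadm and 4930470G03Rik lie near 0 on the control axis.

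Over the 6 time points of the diabetic retina, 12 of the 18 genes called higher had their highest mean at ZT13, 5 at ZT17 and 1 at ZT21. Of the 13 called lower, 8 had their lowest mean at ZT13, 2 at ZT17 and 3 at ZT21. The values at ZT9 and ZT13 chose these genes, so only the other 4 time points add to the description. Drd4 had 1936 ± 177 (SD, n = 5) normalised read counts at ZT5, 4294 ± 516 (SD, n = 4) at ZT17, 4084 ± 425 (SD, n = 5) at ZT21 and 2317 ± 372 (SD, n = 5) at ZT1. Its mean thus stayed near the ZT13 level in the dark and was lower at all 3 light time points. Irf7 went on to 852 ± 149.9 (SD, n = 4) at ZT17 and had 279 ± 63.6 (SD, n = 5) at ZT1. Hk2 had 13897 ± 977 (SD, n = 4) at ZT17 and 6507 ± 617 (SD, n = 5) at ZT5, its lowest mean. BC027072 had 5011 ± 633 (SD, n = 4) at ZT17, 4635 ± 363 (SD, n = 5) at ZT21 and 7110.1 ± 593 (SD, n = 5) at ZT1, a low level in the dark and a high one in the light. Fscn2 was lowest at ZT13 and had 1462 ± 185 (SD, n = 4) at ZT17, between its levels at ZT13 and ZT9, and 1647 ± 274 (SD, n = 5) at ZT21, close to its level of 1662 ± 104 (SD, n = 5) at ZT9.

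**Figure D5:**
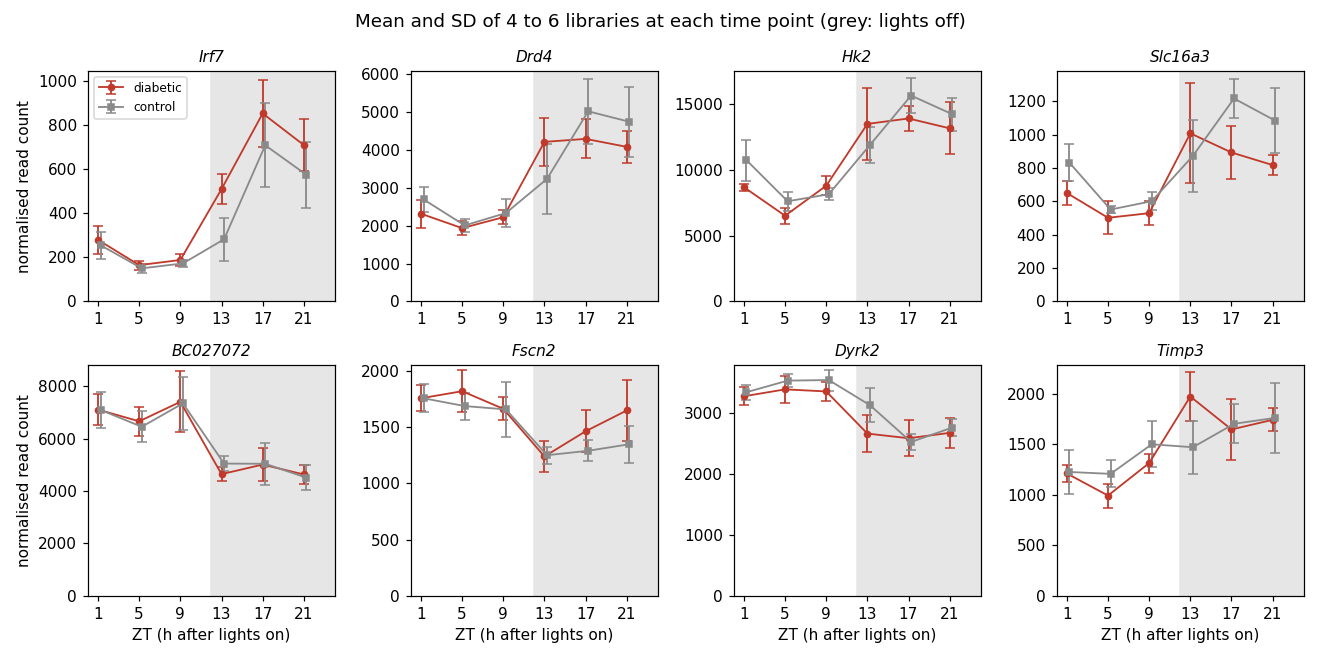
Mean normalised read count with SD (vertical axis, 4 to 6 libraries per point) at 6 times of day (horizontal axis, ZT in h) for 8 genes called in diabetic retinas, in diabetic (red) and control (grey) retinas, with the dark phase shaded. Irf7, Drd4, Hk2 and Slc16a3 are higher at all 3 dark time points than at ZT9 in diabetic retinas, and BC027072 and Dyrk2 are lower.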

How the data were processed

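Total RNA of mouse retinas, depleted of ribosomal RNA, was sequenced in 58 libraries. The authors aligned the reads with STAR (2.7.4a) to GRCm38.p5 with Gencode M15 and made the deposited raw counts per gene with HTSeq (0.11.1), and their own normalisation used DESeq2 (1.26.0). The strand setting is not given in the sources used here. The table holds 52459 symbols, of which 48082 were matched to Gencode M21 and 202 by a synonym. Of the symbols, 2 occur more than once and 26 read as dates. Columns were assigned to groups by title.

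Genes were kept where the median over the 58 libraries was above 4 normalised counts (DESeq2 1.42.0 size factors), which left 19120. Counts were fitted with edgeR 4.0.16 in R 4.3.3 (robust quasi-likelihood, TMM factors, 12 groups of genotype and time in all 58 libraries, without a replicate block). P-values were adjusted by the Benjamini-Hochberg method over all genes tested, the SE is the log2 change divided by the square root of F, and the fit was tested on simulated data. The contrasts were ZT13 minus ZT9 in diabetic retinas, the same in control retinas, and their difference. The replicates are described as biological, without a statement of which mouse each came from, so p-values measure the spread between these libraries. Normalised read counts are counts divided by DESeq2 size factors.

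The genes named are the 12 with the smallest p in each direction among called genes with a mean of at least 20 and no gene-model symbol, the 3 called members with the smallest p of each list, clock genes whether called or not, and genes of known interest, which were Drd4, Adcy1, Nr2e3, Fos, Nr4a1, Cirbp, Rbm3, Hspa1b, Hspa8, Fkbp5, Tsc22d3, Txnip, Opn1sw, Opn1mw, Hk2, Ldha, Vegfa, Pdk1, Egln1 and Slc2a1. Members and lists were chosen with earlier results of these data known, and the HIF core motif was added after the called genes were seen. Some genes of these lists are not reported here. Promoters are from RefSeq (GRCm38.p6). Alternatives were DESeq2, its size factors, other filters, fewer libraries, a replicate block, a correction for GC content and length (known for 96.8% of genes tested), thinned counts and each library left out. Figures were drawn with Python 3.11.15, pandas 2.3.3 and matplotlib 3.10.9.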

Additional observations from a re-analysis of the deposited data

Results flagged for a closer look

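Each diabetic group at ZT9 or ZT13 was examined for a library at one end whose gap to the nearest other library took an unusually large share of the group's range (Dixon's criterion at 95%). Of 146 gene and group combinations 12 met it, where chance gives about 1 in 20. ZT13 replicate 5 was the library that stood out in 7 of the 12. It was the highest ZT13 library for Wscd2 with 1209.6 normalised read counts, where the next had 845, for Ldha with 12657 and for 4930534D22Rik with 69.7. It was the lowest for Dyrk2 with 2213, for Ehd4 with 332, for Hlf with 3618 and for Nr2e3 with 4309.96. ZT13 replicate 1 was the lowest for Rhobtb1 with 312, where the next library had 436. At ZT9, replicate 1 was the highest for A930033H14Rik with 468 and for Gm12758 with 149.5. Replicate 3 was the lowest for Gtf2h1 with 616, and replicate 4 for Nr1d2 with 2887. Of these genes Nr1d2, Hlf, Nr2e3 and Ldha were not called.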

How the results depend on the processing

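In diabetic retinas, 18 genes were higher and 13 lower at ZT13. DESeq2 called 40 higher and 32 lower, a filter at a normalised median above 20 gave 30 and 20, and a correction for GC content and length 43 and 51. With only the 19 libraries of ZT9 and ZT13 the counts were 6 and 1. With only the 9 diabetic libraries 22 were higher and 3 lower, and 8 of the 31 calls were kept. Without a filter or with counts thinned to the smallest library 7 were lower. Leaving out one library gave 5 to 29 higher and 1 to 21 lower. The lowest of both came without ZT13 replicate 5. Without ZT9 replicate 4 there were 8 higher and 3 lower, without ZT9 replicate 5 there were 7 and 2, without ZT13 replicate 3 there were 9 and 4, and without ZT13 replicate 4 there were 10 and 6. The highest were 29 without ZT9 replicate 1 and 21 lower without ZT9 replicate 2. Without ZT13 replicates 4 and 5 together, chosen after seeing the data, there was 1 higher and 1 lower. The cause of these differences was not tested.

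With a replicate block the counts were 33 and 27, which held all 31 calls, and with the block and the GC and length correction 48 and 61. Same-numbered libraries of both times had correlations of -0.000345, 0.000437, 0.173 and 0.177 for replicates 1, 3, 4 and 5, and 4 and 5 correlated best with their own number. As not every pair correlated, the numbers were not taken as pairs, and a factor that libraries 4 or 5 share across the times was not tested.

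In control retinas, 12 genes were higher and 13 lower. DESeq2 called 25 and 20, the 19 libraries 2 and 6, and the block with the GC and length correction 48 and 26. The block alone gave 19 higher, the GC and length correction 31, and both no filter and thinned counts 7. The difference between genotypes gave 0 genes in every fit run.

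For the 31 called genes none of 647 values under the alternatives was reversed, 415 stayed called and 232 did not pass. Of the 42 uncalled genes that the rule named, Nr4a1 passed with only the 9 diabetic libraries. Depths of 8823091 to 17782291 reads leave genes near the filter, such as mt-Te, with a large counting error.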
